A study of Mus musculus with 6 samples.

Results

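The 10 genes examined here encode costimulatory and checkpoint ligands, namely Cd40, Cd80, Cd86, Cd83, Cd274, Pdcd1lg2, Icosl, Tnfsf9, Tnfsf4 and Cd276. They were taken by gene name from a table of 54532 genes, in which all 10 were found. RNA sequencing was performed on macrophages from wild type (WT) mice and from mice lacking progranulin (PGRN KO), the secreted glycoprotein encoded by Grn, with 3 libraries of each genotype. Both genotypes were on the C57BL/6J strain, and all macrophages had been challenged in culture with Candida albicans for 6 hours, at 1 fungal cell per macrophage according to the labels, so that no unchallenged baseline was analysed here. The knockout was carried by the whole animal, and neither the age of the mice nor the number of animals behind each library was stated. The p-values therefore measure the spread between these libraries, which may be technical.

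T cells are activated when a peptide on an antigen-presenting cell is recognised together with costimulatory ligands on the same cell. CD80 and CD86 engage CD28 to promote activation and CTLA-4 to restrain it, whereas PD-L1 (Cd274) and PD-L2 (Pdcd1lg2) engage the inhibitory receptor PD-1. CD40 is itself a receptor through which CD40 ligand on T cells stimulates macrophages, dendritic cells and B cells, and it is grouped with the costimulatory molecules for that reason. ICOS ligand (Icosl), 4-1BB ligand (Tnfsf9) and OX40 ligand (Tnfsf4) act on T cells that have already been activated.

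Levels are given as FPKM, fragments per kilobase of gene model scaled to library size, which allows genes of different length to be compared. The libraries held 15996786 to 17551619 fragments. Grn was at 323 to 337 FPKM in WT and at 0 to 0.0167 FPKM in PGRN KO, as the labels state. The labels place the cells in the peritoneal cavity, whereas the text of the study describes bone marrow-derived macrophages and another ratio of fungi to cells. Neither was settled here, and the labels were followed. The macrophage markers Adgre1, Cd68 and Lyz2 were at 162 FPKM or more in every library. Of 6 markers of resident peritoneal macrophages, 3 were tested, and Icam2 and Lyve1 were significantly higher in PGRN KO, against 10.4% of all tested genes. Gata6 was at 3.78 to 5.07 FPKM and did not differ significantly. Timd4, at no more than 0.204 FPKM, was lower in every PGRN KO library than in any WT library. Garnl3 (means of 0.0244 and 0.0210 FPKM in WT and PGRN KO) and Cxcl13 (0.301 and 0.247) had lower means with overlapping groups. Of 8 macrophage markers, all tested, Mertk was significantly higher and Csf1r lower, where 24.2% of all tested genes differed significantly. PGRN KO replicate 6 stood apart, since its Pearson correlation across genes with PGRN KO replicates 4 and 5 was 0.971 and 0.972, against 0.992 between those libraries and 0.991 to 0.993 within WT. Ligand values are also given without it where it moved them.

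The ligands spanned a wide range of expression. In WT macrophages Cd274 was the most abundant, with a mean of 660 ± 48.4 FPKM (SD, n = 3), and it was rank 70 among all genes of the table. Cd83 followed at 214 ± 25.5 FPKM, Cd80 at 103 ± 2.36 FPKM, Cd86 at 97.0 ± 3.28 FPKM, Tnfsf9 at 61.8 ± 11.8 FPKM and Cd40 at 17.4 ± 2.72 FPKM. The other 4 genes were near the limit of detection, with means of 1.35 FPKM for Pdcd1lg2, 0.465 for Icosl, 0.421 for Tnfsf4 and 0.180 for Cd276. In WT, the ranges of neighbouring genes in this order did not overlap, except those of Icosl and Tnfsf4. In PGRN KO the means of Cd86 and Cd80 changed places with overlapping ranges, and the ranges of Tnfsf9 and Cd40 came to overlap. The mean of Cd276 lay above those of Icosl and Tnfsf4, although its range overlapped that of Icosl. Cd274 alone made up 53.8% to 63.1% of the summed FPKM of the 10 genes.

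**Figure D1:**
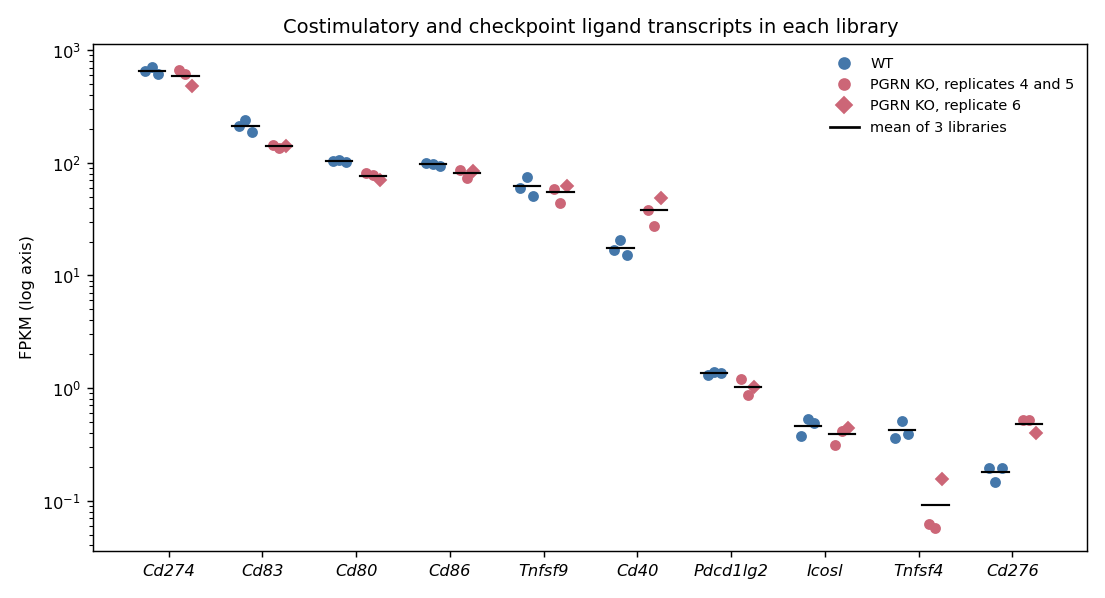
FPKM of the 10 ligand genes (log axis) in the 3 WT and 3 PGRN KO libraries, 1 point per library, with a bar at the mean of each genotype; genes are ordered by their WT mean. Cd40 and Cd276 lay higher in every PGRN KO library, Cd83, Cd80, Cd86, Pdcd1lg2 and Tnfsf4 lay lower, and Cd274, Tnfsf9 and Icosl overlapped.

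To determine which ligands differed between genotypes, genes with a mean of at least 1 FPKM over the 6 libraries were tested with limma on log2(FPKM + 1), with Benjamini-Hochberg adjustment over all 8882 genes tested. Of the 10 ligands, 7 were tested. Cd40 was significantly higher in PGRN KO, Cd83 and Cd80 were significantly lower, and Cd86, Pdcd1lg2, Cd274 and Tnfsf9 did not pass an adjusted p of 0.05. These 3 calls among 7 tested ligands are to be read against 24.2% of all tested genes called, 10.4% higher and 13.8% lower. For 5 of the 7 tested ligands all libraries of 1 genotype lay above those of the other, against 48.8% of all tested genes. The median log2 fold change was -0.22 over the 7 ligands and -0.03 over all genes tested. Icosl, Tnfsf4 and Cd276 were too low for this test and are described by their fragments.

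Cd40, the receptor for CD40 ligand lies on chromosome 2 (165055627 to 165072948, GRCm38). WT replicates 1, 2 and 3 gave 16.7, 20.4 and 15.1 FPKM, and PGRN KO replicates 4, 5 and 6 gave 38.4, 27.3 and 48.8 FPKM. Every PGRN KO library was above every WT library, and the spread was wider in PGRN KO than in WT. From a WT mean of 17.4 ± 2.72 FPKM it rose 2.19-fold to 38.2 ± 10.8 FPKM (SD, n = 3 each). Its log2 fold change was 1.06 ± 0.21 (SE) and its limma adjusted p was 0.0149. Without PGRN KO replicate 6, the highest library, the log2 fold change was 0.87 with an adjusted p of 0.0107. The call was lost without WT replicate 1 (log2 fold change 1.04, adjusted p 0.0637) and without WT replicate 3 (0.97, adjusted p 0.0617). It was also lost when no filter on low values was used (adjusted p 0.0518). Calls over all genes fell from 2151 to 713, 855 and 883 without WT replicates 1, 2 and 3, in fits that hold fewer libraries.

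Cd83 (chromosome 13, 43784775 to 43803132), a surface marker of mature dendritic cells that is also induced in activated macrophages, had the lowest fold change of the 7 ligands tested. WT replicates 1, 2 and 3 had 214, 239 and 188 FPKM, and PGRN KO replicates 4, 5 and 6 had 143, 135 and 142 FPKM. The groups did not overlap, and PGRN KO libraries were closer to each other than WT libraries were. Its mean fell from 214 ± 25.5 to 139.9 ± 4.69 FPKM, which was 65.4% of the WT level (-0.60 ± 0.11 SE on the log2 scale, limma adjusted p 0.0117). The call was lost without WT replicate 1 (adjusted p 0.0643) and without WT replicate 2 (0.0519).

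Of the ligands shared by CD28 and CTLA-4, Cd80 fell and Cd86 did not pass the threshold. Cd80 (chromosome 16, 38455561 to 38496335) reached 103, 105 and 101 FPKM in WT replicates 1, 2 and 3, against 81.5, 77.7 and 70.7 FPKM in PGRN KO replicates 4, 5 and 6. The groups were separate, with the lowest value in PGRN KO replicate 6. From a WT mean of 103 ± 2.36 FPKM it fell to 76.6 ± 5.49 FPKM in PGRN KO (-0.43 ± 0.09 SE on the log2 scale, limma adjusted p 0.0177). This call was the least stable of the 3. The adjusted p was 0.0942, 0.0840 and 0.0648 without WT replicates 1, 2 and 3, and with all libraries it was 0.0944 on a TPM scale, 0.0598 under quantile normalization and 0.0576 when library size was the total of counted fragments.

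Cd86 (chromosome 16, 36603869 to 36666081) had 99.6, 98.0 and 93.3 FPKM in WT replicates 1, 2 and 3, compared with 86.1, 73.4 and 85.2 FPKM in PGRN KO replicates 4, 5 and 6. All 3 PGRN KO libraries were below the WT range, and the mean in PGRN KO was 84.1% of that in WT. The log2 fold change was -0.25 (95% confidence interval -0.48 to -0.02, unadjusted) with a limma adjusted p of 0.105. Without PGRN KO replicate 6 it was -0.28 with an adjusted p of 0.0312, and Cd86 also passed after a correction for gene length (0.0473) and with sample quality weights (0.0135). Both genes lie on chromosome 16, 1789479 bases apart. The ratio of Cd86 to Cd80 within a library, which does not depend on library scaling, was 0.965, 0.929 and 0.926 in WT and 1.06, 0.945 and 1.21 in PGRN KO. The ranges overlapped, and the difference of 0.18 on the log2 scale gave p = 0.2 in an exact two-sided permutation test, which cannot go below 0.1 with 3 against 3 libraries.

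The sequence before the RefSeq transcription start of Cd80 is shown because this gene was called and because it held 1 of the motifs searched. The start lies within the gene model at position 38458933, and the 250 bases before it are chr16:38458683-38458932 on the plus strand of GRCm38.p6. Capitals mark a match to TGANTCA, 42 to 36 bases before the start. This pattern allows any middle base, whereas the AP-1 consensus has C or G there and the match here has T.
Cd80: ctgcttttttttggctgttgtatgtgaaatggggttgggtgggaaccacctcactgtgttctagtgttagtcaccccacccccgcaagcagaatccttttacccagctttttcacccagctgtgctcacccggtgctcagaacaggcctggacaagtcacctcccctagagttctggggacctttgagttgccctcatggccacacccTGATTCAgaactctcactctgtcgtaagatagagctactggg
TGANTCA reads the same on both strands and occurred in 6.75% of the 32851 RefSeq promoters of this length. A match describes these letters and shows neither binding nor a cause.

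The ligands of PD-1 were expressed at very different levels, although their genes are neighbours on chromosome 19 with 22823 bases between them. Cd274 (29367455 to 29388095) stood at 658, 709 and 612 FPKM in WT replicates 1, 2 and 3, against 670, 613 and 479 FPKM in PGRN KO replicates 4, 5 and 6. PGRN KO replicates 4 and 5 lay within the WT range and replicate 6 lay below it. The log2 fold change was -0.18 (95% confidence interval -0.53 to 0.17) with a limma adjusted p of 0.406, and without PGRN KO replicate 6 it was -0.04 with an adjusted p of 0.733. Cd274 passed in none of 17 alternatives, whose adjusted p ranged from 0.248 to 0.733. An antisense gene, AC119228.1, covers 14.1% of the exonic bases of Cd274 on the opposite strand, and because the library kit does not mark strand, reads of the pair cannot be told apart.

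Pdcd1lg2 (29410919 to 29471157) was at 1.31, 1.40 and 1.35 FPKM in WT and at 1.19, 0.867 and 1.02 FPKM in PGRN KO. These values rested on 34 to 40 fragments per WT library and 27 to 34 per PGRN KO library. The groups did not overlap, but the log2 fold change of -0.22 (95% confidence interval -0.45 to 0.02) did not pass, with a limma adjusted p of 0.152. Cd274 was 454 to 507 times Pdcd1lg2 within WT libraries and 469 to 708 times within PGRN KO libraries. These ranges overlapped (difference of 0.23 on the log2 scale, exact two-sided permutation p = 0.3). Leaving out PGRN KO replicate 6 gave a difference of 0.37, and leaving out replicate 5 gave 0.07.

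The 250 bases before the RefSeq start of both PD-1 ligands are shown because these neighbouring genes differed so widely in level. That of Cd274 is chr19:29367188-29367437 and that of Pdcd1lg2 is chr19:29410669-29410918, both on the plus strand of GRCm38.p6. Capitals mark a match to the NF-kB consensus, 244 to 235 bases before the start of Pdcd1lg2.
Cd274: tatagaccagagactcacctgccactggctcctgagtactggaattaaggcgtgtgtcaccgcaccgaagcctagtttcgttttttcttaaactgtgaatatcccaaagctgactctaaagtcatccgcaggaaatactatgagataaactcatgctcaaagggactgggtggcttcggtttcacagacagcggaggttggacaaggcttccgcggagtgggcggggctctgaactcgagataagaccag
Pdcd1lg2: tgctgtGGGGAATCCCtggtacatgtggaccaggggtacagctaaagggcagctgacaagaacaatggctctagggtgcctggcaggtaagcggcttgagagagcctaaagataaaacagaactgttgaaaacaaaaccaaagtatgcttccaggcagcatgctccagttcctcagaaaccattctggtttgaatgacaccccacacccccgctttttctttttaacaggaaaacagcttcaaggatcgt
The NF-kB consensus, searched on both strands, occurred in 7.25% of the 32851 promoters. No match to it, to TGANTCA, to an interferon response element (GAAA, any 2 bases, GAAA, in 2.98% of promoters) or to TTCNNNGAA (the site of STAT factors, in 7.02%) was found in the Cd274 window, which says only that these letters are not in it. RefSeq entries were matched for 5 of the 10 genes, the others being Icosl, with 1 NF-kB match 111 to 102 bases before its start, and Cd276, with no match.

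Among ligands of the TNF family, Tnfsf9, which activates 4-1BB on T cells, gave 60.2, 74.4 and 50.9 FPKM in WT replicates 1, 2 and 3, compared with 58.1, 43.7 and 61.9 FPKM in PGRN KO replicates 4, 5 and 6. The groups overlapped, with a log2 fold change of -0.18 (95% confidence interval -0.60 to 0.25) and a limma adjusted p of 0.508. It was -0.04 without WT replicate 2, -0.03 without PGRN KO replicate 5, -0.30 without WT replicate 3 and -0.27 when PGRN KO replicate 6 was left out, and did not pass in any of these. The noncoding gene Gm11110, at a mean of 2.29 FPKM, shares 14.9% of the exonic bases of Tnfsf9 on the opposite strand. Tnfsf4, which engages OX40, was near the floor of detection. It was counted with 11, 14 and 13 fragments in WT replicates 1, 2 and 3 and with 2, 2 and 5 fragments in PGRN KO replicates 4, 5 and 6. Every PGRN KO library was below every WT library, and WT was 4.56 times PGRN KO over all fragments (95% exact interval 2.17 to 10.7, counting error only). Limma on the recovered fragments of genes with at least 10 fragments in all (voom), which was added after seeing the data, gave a log2 fold change of -2.12 with an adjusted p of 0.0290, against 15.7% of genes called in that fit. With log2(FPKM + 1) and no filter the adjusted p was 0.0328, against 5.96% of genes called.

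Icosl and Cd276 belong to the B7 family with CD80, CD86 and the PD-1 ligands. Icosl was at 0.375, 0.527 and 0.492 FPKM in WT and at 0.312, 0.412 and 0.438 FPKM in PGRN KO. The groups overlapped, with PGRN KO at 0.839 times WT over 106 and 96 fragments in WT and PGRN KO (95% exact interval 0.629 to 1.12). Cd276, which encodes B7-H3, was counted with 12, 8 and 13 fragments in WT replicates 1, 2 and 3 and with 33, 36 and 25 fragments in PGRN KO replicates 4, 5 and 6. All PGRN KO libraries were above the WT range, and PGRN KO was 2.64 times WT (95% exact interval 1.76 to 4.05, counting error only). Its adjusted p was 0.0213 with voom on genes with at least 10 fragments and 0.0409 with log2(FPKM + 1) and no filter. At these levels, of at most 0.521 FPKM, the mRNA was close to the limit of detection in both genotypes.

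**Figure D2:**
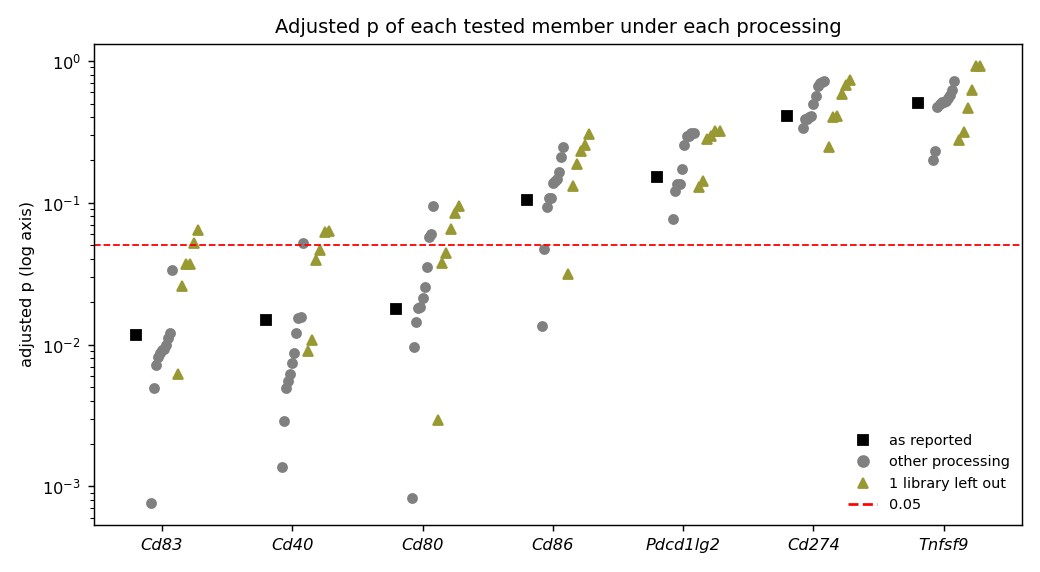
Adjusted p (log axis) of the 7 tested ligands as reported (squares), under other processing of all 6 libraries (circles) and with 1 library left out (triangles); the dashed line marks 0.05. Cd83 stayed below the line in 15 of 17 alternatives, Cd40 in 14 and Cd80 in 11, whereas Cd86 fell below it in 3 and the other 3 ligands in none.

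Next, 58 partner genes of the same pathways were examined. Of these, 37 were tested, and PGRN KO was significantly higher for 5 and lower for 4. The 9 calls are near the share of all tested genes that was called (24.2%), so the count is no result about these partners. Among 17 other ligands, 9 were tested, of which 3 rose and 2 fell. Tnfsf8, the ligand of CD30, rose from 1.17 to 1.24 FPKM in WT libraries to 3.94 to 5.41 FPKM in PGRN KO libraries (1.31 on the log2 scale, limma adjusted p 0.00142). Lgals9, which encodes the TIM-3 ligand galectin-9, rose from 119 ± 9.53 to 179 ± 20.9 FPKM (0.58 on the log2 scale, limma adjusted p 0.0162). Cd47, whose protein restrains phagocytosis, rose from 29.7 ± 0.913 to 39.3 ± 3.01 FPKM (0.39 on the log2 scale, limma adjusted p 0.0233). In contrast, Vsir, which encodes the checkpoint molecule VISTA, fell to 33.2 ± 0.729 FPKM, against 46.9 ± 4.09 in WT (-0.49 on the log2 scale, limma adjusted p 0.0131). Pvr, which encodes the TIGIT and CD226 ligand CD155, fell to 18.1 ± 1.42 FPKM, against 24.4 ± 0.364 in WT (-0.41 on the log2 scale, limma adjusted p 0.0185). Of these calls, that of Tnfsf8 held in all 16 of its alternatives, whereas Pvr did not pass in 6, Cd47 and Vsir in 4 each and Lgals9 in 3. Tnfsf15 was at 75.6 ± 19.1 and 49.8 ± 25.9 FPKM and did not pass (limma adjusted p 0.251). The 8 other ligands that were not tested reached at most 1.35 FPKM in any library.

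The receptors of these ligands on lymphocytes were scarce, and 10 of 14 were too low to be tested. Cd28, the receptor for CD80 and CD86, reached at most 0.312 FPKM and Pdcd1, which encodes PD-1, at most 1.09 FPKM. Havcr2, which encodes TIM-3 and is also expressed by macrophages, was the only one of the 4 tested receptors to pass. It fell from 2.94 ± 0.0275 to 2.02 ± 0.361 FPKM (limma adjusted p 0.0428) and did not pass in 9 of its alternatives, among them leaving out any WT library. Tnfrsf9, the receptor of the Tnfsf9 product, had means of 27.7 ± 1.48 and 23.6 ± 0.423 FPKM (limma adjusted p 0.0938).

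Of the 11 genes of the chain that carries the CD40 signal into the cell, all were tested and 1 passed, against 24.2% of all tested genes. This was Birc2, an inhibitor of apoptosis protein that binds TRAF2, which rose from 2.25 ± 0.281 to 3.21 ± 0.156 FPKM (limma adjusted p 0.0360). The call was lost in 7 of its alternatives, with an adjusted p of 0.0664 on the TPM scale, 0.0864 with no filter and 0.0969, 0.0886 and 0.122 without WT replicates 1, 2 and 3. It was 0.0847 and 0.0902 without PGRN KO replicates 4 and 5. Nfkb2, the precursor of the p52 subunit, ranged from 192 to 253 FPKM in WT and from 198 to 246 FPKM in PGRN KO (0.04 on the log2 scale, limma adjusted p 0.864). Traf3, a negative regulator of this pathway, had means of 8.72 ± 0.0771 and 6.01 ± 1.43 FPKM (limma adjusted p 0.0604). Of 8 genes listed for surface turnover, 5 were tested and 0 passed with limma, against 24.2% of all tested genes. Of these 5, 1 had an unadjusted p under 0.05. With voom on recovered fragments 0 passed and 2 had an unadjusted p under 0.05. The count that passed was 1 with sample quality weights and 1 without PGRN KO replicate 6. Cmtm6, which stabilises PD-L1 at the cell surface, was at 34.5 ± 0.495 and 40.1 ± 4.07 FPKM (limma adjusted p 0.167).

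Of 8 genes that induce PD-L1 downstream of interferons and cytokines, all were tested, 1 rose, 1 fell and 6 did not pass. These calls are near the share of all tested genes that was called (24.2%), so the count is no result about these genes. Jak1, a kinase of interferon and cytokine receptors, fell from 63.0 ± 2.84 to 40.9 ± 5.99 FPKM (-0.62 on the log2 scale, limma adjusted p 0.0146). The adjusted p was 0.0621 on the TPM scale and 0.0697, 0.0685 and 0.0514 without WT replicates 1, 2 and 3. Irf1, which binds the PD-L1 promoter, had means of 86.4 ± 8.74 and 102 ± 14.9 FPKM (limma adjusted p 0.265). Jak2, which lies 54374 bases from Cd274, had means of 71.6 ± 8.64 and 65.8 ± 11.9 FPKM (limma adjusted p 0.576).

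**Figure D3:**
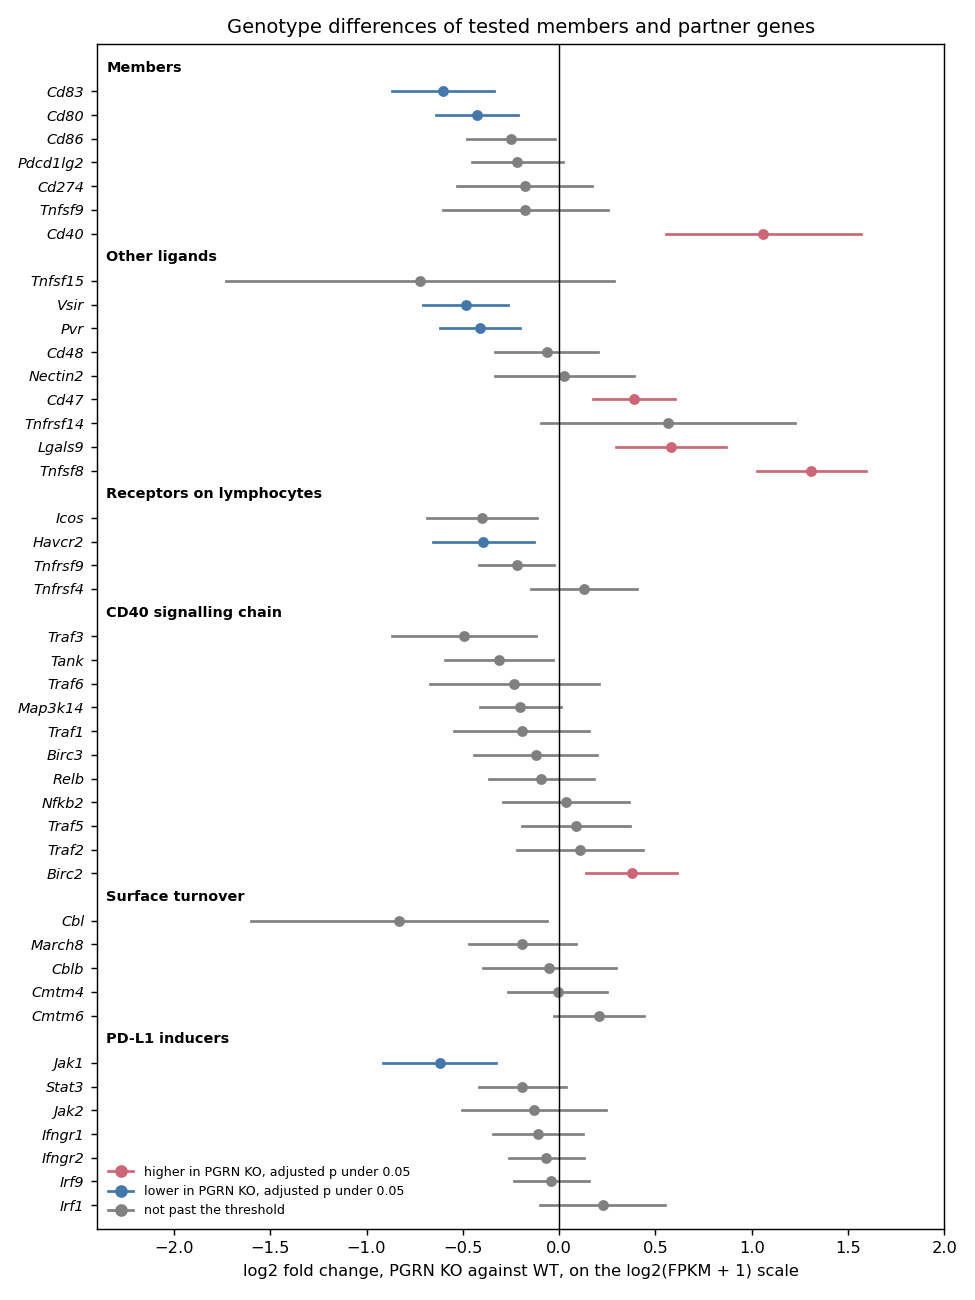
Log2 fold change of PGRN KO against WT on the log2(FPKM + 1) scale for the 7 tested ligands and 36 of the 37 tested partner genes, with unadjusted 95% confidence intervals from limma; colour marks genes past an adjusted p of 0.05. Cd40 stood at 1.06 and Cd83 at -0.60, and the CD40 signalling genes lay between -0.49 and 0.38.

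The libraries also differed in markers of other cells that can carry these ligands, and fewer cells of a type cannot be told apart from less RNA per cell. All 8 B cell markers were higher in every PGRN KO library than in any WT library, while 48.8% of all tested genes did not overlap. Their sums were 9.43 to 10.9 FPKM in WT and 26.5 to 31.1 FPKM in PGRN KO. Of these markers, 4 were tested and passed as higher, against 10.4% of all tested genes. However, Cd79a and Cd79b, with WT means of 0.960 and 0.633 FPKM, reached the filter of 1 FPKM only through PGRN KO. The count therefore favours a rise. B cells express Cd40. The difference in Cd40 between the genotype means was 20.7 FPKM, whereas it was 9.93 FPKM for Ighm, the largest among these markers, and 2.82 FPKM for Cd79a. The part of B cells in the Cd40 result was not tested.

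Of 8 markers of dendritic cells, 4 were lower in every PGRN KO library than in any WT library. Among all tested genes, 48.8% had groups that did not overlap, in either direction. Only 2 of these markers were tested, so that share is not a like comparison, and the count is not read as a result. Cd80, Cd83, Cd86, Pdcd1lg2 and Tnfsf4 were also lower in every PGRN KO library. The sum of the list was 39.8 to 48.5 FPKM for WT and 21.4 to 27.1 FPKM for PGRN KO. It was made up mainly of Ccr7 and Fscn1, which mark mature dendritic cells, and Ccr7 is induced in activated macrophages as well. Both were tested and fell, Ccr7 from 28.9 ± 3.42 to 16.6 ± 1.93 FPKM (limma adjusted p 0.00775) and Fscn1 from 12.5 ± 0.923 to 6.00 ± 1.15 FPKM (limma adjusted p 0.00509). Xcr1 and Flt3 were also lower in every PGRN KO library, at no more than 1.34 FPKM, whereas the means of Zbtb46 (0.550 and 0.698 FPKM in WT and PGRN KO), Batf3 (0.520 and 0.595) and Clec9a (0.0361 and 0.0560) were higher in PGRN KO with overlapping groups, and Cd209a was listed at 0. The means of Cd83 and Cd80 differed by -73.9 and -26.5 FPKM. The part of dendritic cells in these results was not tested.

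Sums of mast cell markers were 2.29 to 3.19 FPKM in WT and at least 9.72 FPKM in every PGRN KO library. They were made up mainly of Tpsb2 (means of 1.08 and 5.14 FPKM in WT and PGRN KO) and Cma1 (0.789 and 4.21). Cpa3, Mcpt4 and Fcer1a also had higher means in PGRN KO, whereas Kit had a lower mean (0.345 and 0.210). Sums of mesothelial and fibroblast markers were 0.989 to 1.10 and 1.84 to 3.35 FPKM, beside Cd276 means of 0.180 and 0.479 FPKM. Of these 8 markers, none of which was tested, 3 did not overlap between genotypes. These were the fibroblast genes Dcn (means of 0.490 and 1.35 FPKM), Col1a1 (0.227 and 0.548) and Col3a1 (0.0294 and 0.190). Among all tested genes, 48.8% did not overlap, in either direction. As these markers were not tested, that share is not a like comparison, and the count is not read as a result. The mesothelial markers Msln (0.103 and 0.0705), Upk3b (0.0169 and 0.00546) and Krt19 (0.156 and 0.121) had lower means in PGRN KO, whereas Wt1 (0.00322 and 0.0212) had a higher mean. Sums of T cell markers were 3.11 to 3.66 and 4.92 to 6.73 FPKM. Among neutrophil markers S100a8 fell from 50.0 ± 2.46 to 23.3 ± 2.20 FPKM, while Ly6g was listed at 0 and the other 6 were at or below 0.443 FPKM. The part of these cells in the ligand results was not tested.

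**Figure D4:**
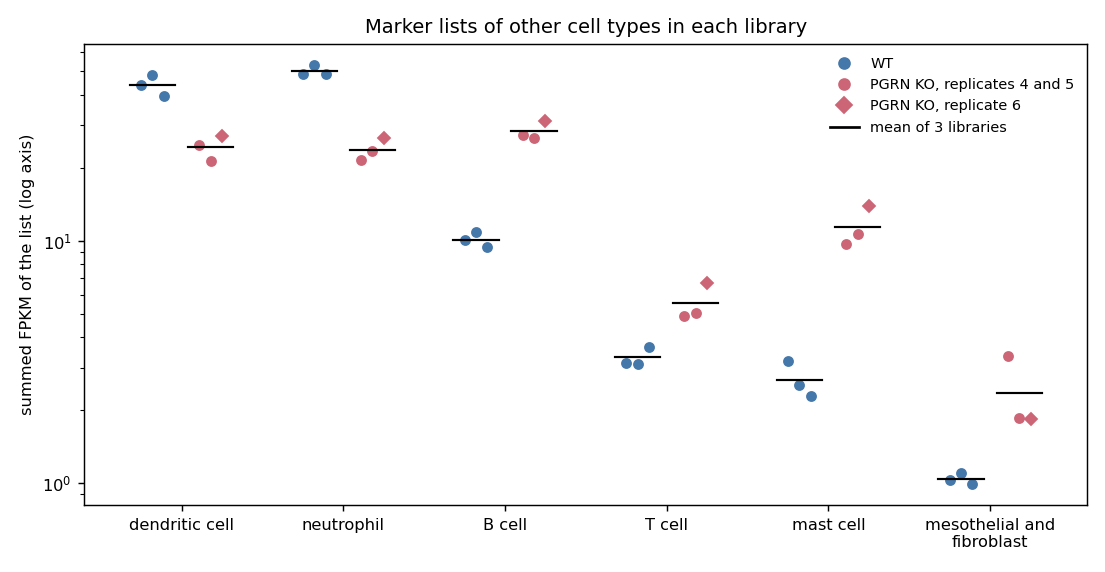
Summed FPKM (log axis) of marker lists of 6 other cell types in each library, with a bar at the mean of each genotype. The sums of the dendritic cell and neutrophil lists were lower in every PGRN KO library than in any WT library. Those of the B cell, T cell, mast cell and mesothelial and fibroblast lists were higher. The neutrophil sum was almost all S100a8, and not every marker followed its list, since Msln, Upk3b, Krt19 and Kit had lower means in PGRN KO.

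The genes whose values followed the called ligands most closely over the 6 libraries are given as a description. Tap1 and Tapbp had the highest Pearson correlation with Cd40 on the log2(FPKM + 1) scale (both 0.999). Tap1 encodes a subunit of the transporter that supplies peptides to MHC class I, and Tapbp encodes a protein that helps load them. Tap1 was at 62.0 to 78.6 FPKM for WT and 93.4 to 136 FPKM for PGRN KO, with PGRN KO replicate 6 highest and replicate 5 lowest among PGRN KO libraries, as for Cd40. Pprc1 and Itgal were closest to Cd80 (both 0.999), and Samsn1 and Tnip3 were closest to Cd83 (both 0.998). Over 6 libraries in 2 genotypes such values are common, since 331, 639 and 288 of 8881 genes had a correlation above 0.95 with Cd40, Cd80 and Cd83.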

How the data were processed

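RNA was measured in 3 WT (replicates 1 to 3) and 3 PGRN KO (replicates 4 to 6) libraries, grouped by sample title. The authors aligned filtered reads to the mouse genome and deposited FPKM per gene. The processing notes of the labels name HISAT2 2.0.5, featureCounts 1.5.0-p3 and mm10, whereas the methods of the study name HTSeq. The library kit does not mark strand. Coordinates are those of the table, which matched GENCODE M21 on GRCm38 for 9 of the 10 ligands. The Pdcd1lg2 model ends at another base in GENCODE.

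FPKM times gene length gave whole multiples of 1 step for 100.0% of values above 0 in each library (tolerance 0.001 of a step), which gave fragments per gene. The library sizes used by the authors were 0.925 to 1.09 times the sum of these fragments. Intervals on fragments cover counting error only. Genes averaging 1 FPKM or more were tested with limma 3.58.1 in R 4.3.3 on log2(FPKM + 1), a scale that understates changes of low genes (trended empirical Bayes, two-sided, Benjamini-Hochberg over 8882 genes, threshold 0.05). The test was also run on simulated data with known changes. That simulation held no outlying library like PGRN KO replicate 6, so it does not give the error rate in these data.

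Of the 31-base words in their transcripts, the ligands shared at most 2.98% (Cd40) with other genes. Named genes were the 10 ligands, Grn, partner genes past the threshold (1 is counted but not reported here by name) with up to 3 further examples a list, markers, and the 2 genes most correlated with each called ligand. Tnfsf15, Cd28, Pdcd1, Jak2 and Traf3 were named after their values were seen. The ligands and lists were chosen with earlier results of these data known.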

Additional observations from a re-analysis of the deposited data

How the results depend on the processing

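No paired analysis was possible because the labels name no pairing of the libraries. Over the 10 ligands, no tested ligand changed sign under any of the 17 alternatives. Against 3 ligands called (1 higher, 2 lower), voom on genes with at least 10 fragments, added after seeing the data, called 5, of which 2 higher, from 10 ligands tested. The TPM scale, quantile scaling and library sizes taken as the total of counted fragments each left 1 ligand called lower, Cd83. Leaving out 1 library gave 0 to 4 ligands called, 0 to 1 higher and 0 to 3 lower. The 0 came from limma without WT replicate 1, where 3 ligands had an unadjusted p under 0.05, and 1 was called without WT replicate 2 or 3. The partner genes called, 9 in all, became 4 on the TPM scale, 17 with sample quality weights, and 2 to 14 with 1 library left out (2, 4 and 2 without WT replicates 1, 2 and 3, 5 without PGRN KO replicate 4 and 14 without replicate 6). Over all genes, 2151 calls became 1366 with no filter, where 22912 genes are adjusted together, 4225 with sample quality weights, which gave PGRN KO replicate 6 a weight of 0.0899, and 713 to 3668 with 1 library left out. The fits with a library left out hold fewer samples, and other causes were not tested. The log2 ratio of Cd86 to Cd80 (0.18) was 0.09 without PGRN KO replicate 6, and that of Cd274 to Pdcd1lg2 (0.23) was 0.04 as a ratio of FPKM + 1 and 0.07 to 0.37 with 1 library left out. The log2 ratio of mean FPKM of Tnfsf4 was -2.19, and -2.81 without PGRN KO replicate 6. Depth limits Tnfsf4, Cd276, Icosl and Pdcd1lg2, each with at most 41 fragments in a library.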
